A study of Mus musculus with 3 samples.

Results

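*Car4*-type capillary endothelial cells (ECs), also called aerocytes, were examined in scRNA-Seq libraries of whole lung from 3 C57BL/6 mice, wild type as the series describes them and kept in room air from day of life 1 to P14. The mice are numbered 2, 3, and 4. They form 1 condition, so no treatment was compared, and the mice are the replicates. Transcripts were counted by unique molecular identifiers (UMIs), tags that mark each captured transcript once. The aerocytes were chosen by the UMIs of each cell, with a gate that required at least 1 UMI of *Cdh5* or *Cldn5* (endothelial junction genes), at least 1 UMI of *Car4*, and at least 2 UMIs of *Ednrb*, *Apln*, and *Fibin* together. The gate also allowed no UMI of *Ptprc* (leukocytes), at most 5 of *Col1a1* and *Col1a2* (fibroblasts), at most 1 of *Gja5* (arteries), and *Sftpc* (AT2 cells) below 2% of UMIs. It kept 149 cells of the 7642 that remained of 9644 deposited cells after those with under 200 genes or over 20% mitochondrial UMIs were left out. There were 44 aerocytes in mouse 2, 44 in mouse 3, and 61 in mouse 4. The lungs were dissociated before capture, and how well each cell type was recovered was not tested.

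The capillaries of the alveoli hold a pair of endothelial types. Aerocytes are large, thin, and branched cells that line the air-blood barrier opposite AT1 cells, and they are known to depend on VEGF signaling through the receptor encoded by *Kdr*. The other type, general capillary cells, is marked by *Aplnr* and *Kit*, acts as a progenitor, and regulates vascular tone. Apelin (*Apln*) is made by aerocytes and its receptor (*Aplnr*) by general capillary cells. *Car4* encodes a membrane-bound carbonic anhydrase, and *Ednrb* the endothelin B receptor.

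Aerocytes were compared with the 803 other cells that had at least 4 UMIs of *Cdh5* and *Cldn5*. Of these, 533 were *Aplnr*/*Kit*-type cells, which passed the same limits on the genes of other cell types and had at least 2 UMIs of *Aplnr* and *Kit*. A further 125 were arterial-type cells with at least 2 UMIs of *Gja5*, which encodes a gap junction protein of arterial ECs. The last 145 met neither rule or carried RNA of another cell type. B cells, 1787 cells with at least 3 UMIs of *Cd79a* and *Cd79b* and none of *Cdh5* or *Cldn5*, served as the background from free RNA. Aerocytes had a median of 9005.5, 9049.5, and 8508 UMIs per cell in mice 2, 3, and 4, and *Aplnr*/*Kit*-type cells 8143.5, 7951.5, and 7409. The median share of mitochondrial UMIs was 6.81%, 7.09%, and 6.25% in aerocytes and 7.34%, 6.89%, and 6.55% in *Aplnr*/*Kit*-type cells. Between libraries 12 cell barcodes were shared, and none was that of an aerocyte.

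The 4 genes that chose the aerocytes are given as a description, with no test. Levels are given as CPM, the UMIs of a gene per 1000000 UMIs summed over a group in a mouse. *Car4* (ENSMUSG00000000805, chr11:84957786-84966044 on the plus strand of mm10, GENCODE M21) was at 856, 1098, and 985 CPM in the 3 mice in this order, and *Aplnr*/*Kit*-type cells had it at 66.9, 49.9, and 55.6 CPM. *Ednrb* (chr14:103814625-103844402, minus strand) was at 799, 1342, and 854 CPM, *Apln* (chrX:48025146-48034853, minus strand) at 298, 492, and 358 CPM, and *Fibin* (chr2:110360917-110363183, minus strand) at 322, 819, and 469 CPM. Mouse 3 was the highest in all 4 genes. A single aerocyte held a median of 11 *Car4* UMIs, with a range of 1 to 48. *Ednrb* was found in 134 of the 149 cells, *Apln* in 139, and *Fibin* in 101, and 92 cells had all 4 genes. Although aerocytes held only 2.79% ± 0.148 (mean ± SD, n = 3 mice) of the UMIs of the kept cells, they held 68.4% ± 5.42 of the *Apln* UMIs, 58.4% ± 2.78 of *Car4*, 39.7% ± 8.47 of *Ednrb*, and 29.9% ± 12.5 of *Fibin*. The gate picked cells that held these UMIs, so high shares follow in part from the choice and are no result about the genes. Most *Ednrb* and *Fibin* UMIs still lay outside the chosen cells.

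*Kdr*, the receptor for VEGF-A and an aerocyte marker that the gate did not use, was at 2095, 2713, and 2309 CPM in aerocytes. It was at 556, 594, and 544 CPM in *Aplnr*/*Kit*-type cells and 403, 331, and 210.0 CPM in arterial-type cells. The groups did not overlap, and B cells were at 3.29 CPM on average. *Kdr* UMIs were found in 146 of the 149 aerocytes, and the aerocytes held 46.9% ± 6.35 of all *Kdr* UMIs. Of the markers named for these cells, only *Kdr* was free of the gate, and its level went with the label. *Kdr* lies at chr5:75932827-75978458 on the minus strand, where no other annotated gene overlaps it.

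The 250 bases before the annotated start of *Car4*, *Kdr*, and *Emp2* are shown as the promoters of the gene that defines the cells, of the receptor gene that the gate left free, and of the leading gene with the highest level (RefSeq, GRCm38.p6, 5′ to 3′ on the gene's strand). The RefSeq start of *Car4* lies before its GENCODE M21 start at chr11:84957786. The bases after the RefSeq start were found in GENCODE transcripts for *Kdr* and *Emp2* but not for *Car4*. Capitals mark the core bound by ETS factors, a family that acts in ECs, searched as CCGGAA on both strands.
Car4, chr11:84957504-84957753, plus strand: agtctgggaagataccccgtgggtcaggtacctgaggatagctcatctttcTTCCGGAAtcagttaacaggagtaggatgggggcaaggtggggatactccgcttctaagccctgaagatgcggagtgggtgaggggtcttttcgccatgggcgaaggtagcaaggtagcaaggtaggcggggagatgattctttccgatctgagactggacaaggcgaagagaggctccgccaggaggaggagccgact
Kdr, chr5:75978456-75978705, minus strand: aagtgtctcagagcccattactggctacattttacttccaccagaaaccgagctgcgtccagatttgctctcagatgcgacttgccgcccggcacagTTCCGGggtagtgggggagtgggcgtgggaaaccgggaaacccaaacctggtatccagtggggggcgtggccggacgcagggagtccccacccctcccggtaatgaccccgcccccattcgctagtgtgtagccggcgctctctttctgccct
Emp2, chr16:10313969-10314218, minus strand: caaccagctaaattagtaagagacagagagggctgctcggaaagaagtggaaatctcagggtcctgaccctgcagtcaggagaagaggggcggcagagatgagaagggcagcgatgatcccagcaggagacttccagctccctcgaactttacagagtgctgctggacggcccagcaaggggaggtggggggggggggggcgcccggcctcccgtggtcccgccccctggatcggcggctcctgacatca
The *Car4* window held the core on both strands at overlapping positions, the *Kdr* window held it on 1 strand, and the *Emp2* window did not hold it. Of all 32851 windows of this length, 12% held it. The share was 23.1% for windows of genes tested against *Aplnr*/*Kit*-type cells and 14.7% for those higher and 12.8% for those lower in aerocytes. For the T-box letters GGTGTGA, on both strands, the shares were 3.33%, 2.51%, 3.01%, and 3.60% in the same order. These shares were not tested against each other. A match is a description of letters and not of binding.

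Aerocytes made up 12.2% of ECs in mouse 2 (exact 95% binomial interval, 9.02% to 16.1%), 19.2% in mouse 3 (14.3% to 24.9%), and 16.8% in mouse 4 (13.1% to 21.1%), where ECs are the aerocytes and the 803 other cells. The mean was 16.1% ± 3.55 (SD, n = 3 mice), and aerocytes were 1.94% ± 0.315 of all kept cells. The intervals cover counting error only. The lowest and highest mice had intervals that overlapped. The share depends on where the gate is set. It was 12.7% ± 4.29 with at least 2 *Car4* UMIs and 4 UMIs of *Ednrb*, *Apln*, and *Fibin*. It was 22.2% ± 4.36 when other ECs with any *Car4* UMI, or with 2 or more UMIs of *Ednrb*, *Apln*, and *Fibin*, were left out of the denominator.

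The aerocytes were not uniform, and cells with few UMIs of *Car4*, or of *Ednrb*, *Apln*, and *Fibin*, were closer in the levels of *Kdr* and *Emp2* to *Aplnr*/*Kit*-type cells (*Kdr* at 560.5 and *Emp2* at 158 CPM, pooled). The values that follow describe how cells were chosen and were not tested. The 23 aerocytes with a single *Car4* UMI had *Kdr* at 822 CPM, *Emp2* at 694, *Tbx2* at 59.0, and *Chst1* at 34.7 CPM, when over all aerocytes these were 2364, 1831, 582, and 234 CPM. The 96 cells just outside, with no *Car4* UMI but all other conditions met, had *Kdr* at 528, *Emp2* at 257, *Tbx2* at 49.9, and *Chst1* at 17.6 CPM. The 16 aerocytes with just 2 UMIs of *Ednrb*, *Apln*, and *Fibin* had *Kdr* at 939 CPM, the 25 cells outside with 1 such UMI had it at 489 CPM, and the 91 with none at 672 CPM. Median depth was 8446 UMIs in the cells with 1 *Car4* UMI and 8886 in all aerocytes, values close to each other. It was lower, 5910.5 UMIs, in the 16 aerocytes with just 2 UMIs of *Ednrb*, *Apln*, and *Fibin*. Only 3 aerocytes had fewer than 4 UMIs of *Cdh5* and *Cldn5*, with a median of 626 UMIs, and they went the other way, with *Kdr* at 5233 and *Emp2* at 16651 CPM.

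Levels followed the *Car4* UMIs of the cell in steps. In cells with 1, 2 to 5, 6 to 15, and 16 to 48 *Car4* UMIs (23, 32, 40, and 54 cells), *Kdr* was at 822, 1499, 2531, and 3102 CPM. *Emp2*, which encodes a membrane protein also known from AT1 cells, was at 694, 1313, 2033, and 2288 CPM. *Tbx2*, a T-box repressor, was at 59.0, 313, 635, and 827 CPM, and *Kitl*, the ligand of the receptor *Kit*, at 496, 815, 2002, and 2149.6 CPM. The general capillary genes ran the other way. *Aplnr* was at 916, 680.4, 342, and 284 CPM, *Kit* at 694, 611, 413, and 361 CPM, *Ptprb* (a phosphatase that restrains TIE2) at 2293, 1696, 1068, and 915 CPM, and *Plvap* (the diaphragm protein of fenestrae and caveolae) at 805, 560.3, 382, and 309 CPM. Median UMIs per cell were 8446, 6391, 7944, and 10786.5 over these steps, so the last step was the deepest. The cells of a step come from the same 3 mice and are no replicates.

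**Figure D1:**
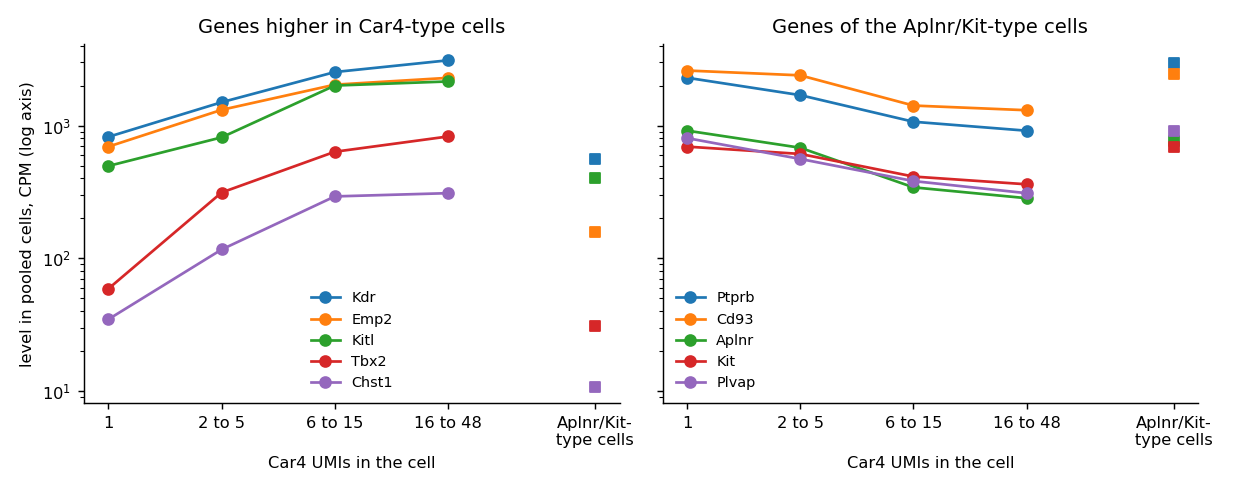
Level in CPM (log axis) of 10 genes in pooled aerocytes, by the number of Car4 UMIs in the cell, with the mean of the Aplnr/Kit-type cells as squares. Kdr was at 822 CPM in aerocytes with 1 Car4 UMI and at 3102 CPM in those with 16 to 48, against 565 CPM in Aplnr/Kit-type cells, and Aplnr was at 916 and 284 CPM, against 760 CPM.

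The same split was seen in each mouse. The 111 aerocytes with at least 2 *Car4* UMIs and 4 UMIs of *Ednrb*, *Apln*, and *Fibin* had *Emp2* at 2043, 2261, and 2146 CPM, and the other 38 had it at 803, 890.4, and 725 CPM. *Sirpa*, which encodes the receptor for the signal CD47, was at 389, 412, and 400.3 CPM in the former and 27.0, 31.4, and 31.0 CPM in the latter. *Aplnr* was lower in the former, at 403, 323, and 316 against 992, 649, and 706 CPM. The 38 cells overlapped in *Aplnr* with *Aplnr*/*Kit*-type cells, which were at 717, 833, and 728 CPM. In *Emp2* the 38 cells were above *Aplnr*/*Kit*-type cells, which were at 154, 148, and 171 CPM. Only 7 of the 38 cells came from mouse 3. *Dll4* overlapped between them, at 124, 116, and 165 and 199, 157, and 105 CPM. At least 2 UMIs of *Aplnr* and *Kit*, as required of the *Aplnr*/*Kit*-type cells, were found in 39 of the 111 cells and 23 of the 38. These were 62 of the 149 aerocytes.

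Genes that varied most among aerocytes were ranked by the ratio of variance to mean of their UMIs, with each cell thinned to 2000 UMIs (128 cells, 21 shallower cells left out), and by the smallest ratio of the 3 mice. With genes of the gate left out, the 10 highest of 1950 genes were *Malat1*, *Igfbp7*, *Cd93*, *Scn7a*, *Emp2*, *Kitl*, *Hmgb2*, *Slc6a6*, *Nrp1*, and *Kit*, when the median gene had a ratio of 0.865. The gate gene *Ednrb* had ratios of 3.42, 3.25, and 2.75, so its smallest ratio was above that of *Slc6a6* (2.68). *Malat1*, a nuclear noncoding RNA, had ratios of 37.0, 23.5, and 23.8 in mice 2, 3, and 4. *Igfbp7* had ratios of 3.79, 3.84, and 4.21, *Cd93*, a lectin of ECs, 3.62, 3.79, and 3.22, and *Scn7a*, a sodium channel gene, 3.15, 5.17, and 4.07. *Hmgb2*, a chromatin protein of dividing cells, was found in 17.1%, 15.8%, and 18.2% of the thinned cells. The list thus held genes high in aerocytes (*Igfbp7*, *Scn7a*, *Emp2*, *Kitl*, *Nrp1*) and genes high in *Aplnr*/*Kit*-type cells (*Cd93*, *Kit*). *Kit* helped choose the *Aplnr*/*Kit*-type cells, so its level there is no result. Dividing cells were rare. *Mki67* and *Top2a* together had at least 2 UMIs in 11 of 149 aerocytes (7.38%, exact 95% interval 3.74% to 12.8%), 46 of 533 *Aplnr*/*Kit*-type cells (8.63%, 6.39% to 11.3%), and 4 of 125 arterial-type cells (3.20%, 0.879% to 7.99%).

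Genes that the gates did not use were then compared between aerocytes and *Aplnr*/*Kit*-type cells, the type most like them, with UMIs summed per mouse. Of 8189 genes tested, 574 (7.01%) were higher in aerocytes and 474 (5.79%) were lower (edgeR quasi-likelihood test, adjusted p under 0.05, n = 3 mice). These shares are the background, given as higher and lower, for each gene list counted against *Aplnr*/*Kit*-type cells. A difference of at least 2-fold was reached by 210 of the former and 191 of the latter. These p-values rest on sums over cells that were picked by UMIs of related genes, so a gene that goes with *Car4* can differ by that choice alone. There were 1048 calls with all mice, 632 without mouse 3, and 594 without mouse 4.

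The genes with the largest difference in favor of aerocytes were *Itgb5*, *Chst2*, *Sirpa*, *Chst1*, and *Tbx2*. *Itgb5*, the integrin beta5 subunit, was at 90.4, 159.9, and 136 CPM in aerocytes and 0.461, 4.16, and 2.78 CPM in *Aplnr*/*Kit*-type cells (log2 fold change 5.84, SE 0.43, edgeR adjusted p = 2.06e-08). *Chst2*, a carbohydrate sulfotransferase, was at 119, 179, and 133 against 2.77, 5.82, and 5.01 CPM (log2 fold change 5.04, SE 0.28, edgeR adjusted p = 5.61e-10). Its relative *Chst1* was at 206, 272, and 226 against 6.92, 17.5, and 7.79 CPM (log2 fold change 4.59, SE 0.23, edgeR adjusted p = 7.42e-11). No values of the groups overlapped in these 3 genes. *Sirpa* was at 313 ± 35.8 against 11.5 ± 3.09 CPM (log2 fold change 4.80, SE 0.20, edgeR adjusted p = 1.67e-11). *Tbx2* (chr11:85832551-85841948, plus strand) was at 531, 626, and 591 against 26.3, 37.4, and 29.5 CPM (log2 fold change 4.28, SE 0.19, edgeR adjusted p = 2.26e-11). *Tbx3os1* is antisense to *Tbx3* and overlaps it, and whether counting used strand is not given in the sources used here. Its log2 fold change was 4.09, and that of *Tbx3* itself was 1.12. *Frrs1*, *Emp2*, *Cd24a*, and *Slc22a23* completed the 10 genes of the largest difference, with log2 fold changes of 4.03, 3.56, 3.38, and 3.35. *Emp2* had the smallest SE among the 10, 0.11, from levels of 1658, 2031, and 1815 against 154, 148, and 171 CPM.

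**Figure D2:**
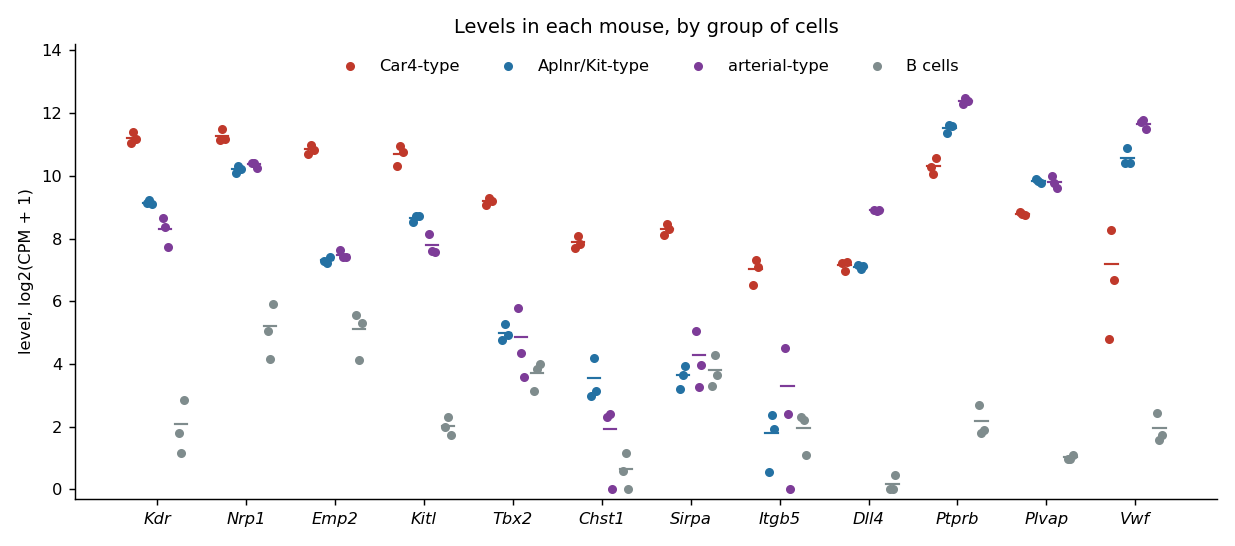
Level as log2(CPM + 1) of 12 genes in each of the 3 mice (points) and their mean (lines), in aerocytes, Aplnr/Kit-type cells, arterial-type cells, and B cells. Kdr to Itgb5 were higher in aerocytes than in either endothelial group, Dll4 overlapped with Aplnr/Kit-type cells, and Ptprb, Plvap, and Vwf were lower in aerocytes.

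Of 18 further markers known for aerocytes, 17 could be tested against *Aplnr*/*Kit*-type cells, 15 were higher and none was lower with all cells included, with a median log2 fold change of 2.07 (0.01 over all genes tested). *Prx*, a scaffold protein of thin cells, was at 557 ± 52.1 against 205 ± 26.7 CPM. *Cdkn2b*, a cell cycle inhibitor, was at 74.7 ± 26.4 against 4.19 ± 1.98 CPM, *Pmp22* at 1362 ± 230.2 against 241 ± 38.8 CPM, and *Igfbp7* at 2644 ± 514 against 416 ± 55.0 CPM. *Kitl* was at 1279.5, 1968, and 1729 CPM in aerocytes and 364, 418, and 422 CPM in *Aplnr*/*Kit*-type cells, which carry its receptor *Kit* (log2 fold change 2.07, SE 0.15, edgeR adjusted p = 1.87e-08). *Hpgd*, the enzyme that degrades prostaglandins, and *Rasgef1a* did not pass the test, with levels of 1549.7 ± 135 against 1480.4 ± 92.2 and 385 ± 49.1 against 429 ± 33.2 CPM. Without cells that held *Slc6a2* and *Vwf*, described further on, the same number was higher and *Rasgef1a* was lower (log2 fold change -0.47, edgeR adjusted p = 0.015). This list was written with earlier results of these data known.

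Genes of the VEGF pathway differed in both directions. Of 7 tested genes, the receptor genes *Kdr*, *Flt4*, and *Nrp1* were higher in aerocytes and the ligand genes *Vegfa* and *Vegfc* and the co-receptor gene *Nrp2* were lower (background 7.01% and 5.79%). *Kdr* had a log2 fold change of 2.09 (SE 0.15, edgeR adjusted p = 1.60e-08). *Nrp1*, the co-receptor that binds VEGF-A, was at 2261, 2850.1, and 2289.8 against 1095, 1279, and 1191 CPM (log2 fold change 1.08, SE 0.10, edgeR adjusted p = 2.91e-07). *Flt1*, a receptor that traps VEGF-A, overlapped at 904, 1031, and 917 and 737, 934, and 858 CPM and did not pass (edgeR adjusted p = 0.265). *Vegfa* was at 68.7, 94.9, and 99.5 CPM in aerocytes, below the 159, 185, and 201 CPM of *Aplnr*/*Kit*-type cells (log2 fold change -1.02, SE 0.15, edgeR adjusted p = 5.82e-05). *Nrp2* overlapped between the groups. Without the *Slc6a2* and *Vwf* cells, *Vegfc* and *Nrp2* were not called (-0.58 and -0.38, edgeR adjusted p = 0.308 and 0.763), *Flt4* just missed the threshold (0.52, edgeR adjusted p = 0.0596), *Vegfa* was called (-1.41), and *Flt1* was called higher (0.38).

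*Mgp* and *Vwf* were among the genes with the largest difference in the other direction. *Mgp*, an inhibitor of calcification made by arteries, was at 16.7, 40.4, and 24.5 against 398, 874, and 663 CPM (log2 fold change -4.55, SE 0.29, edgeR adjusted p = 2.29e-09). *Vwf*, von Willebrand factor, which is high in larger vessels, was at 26.8, 309, and 101 against 1343, 1878, and 1353 CPM (log2 fold change -3.38, SE 0.40, edgeR adjusted p = 7.41e-06). *Slc6a2*, a noradrenaline transporter found in pulmonary veins, was at 0, 70.3, and 40.4 against 415, 523, and 238 CPM. *Fgl2*, *Ctsh*, *Cpe*, *Igfbp5*, *Adgrg6*, *Plac8*, and *Fbln5* completed the 10, with log2 fold changes between -4.42 and -2.76. *Igfbp5* lost its call without mouse 2 (log2 fold change -1.62, edgeR adjusted p = 0.156) and with doublets removed (-1.71, edgeR adjusted p = 0.0945), and *Slc6a2* was not called by DESeq2 (DESeq2 adjusted p = 0.396). The *Aplnr* and *Kit* rule did not bar venous cells. At least 2 UMIs of *Slc6a2* and *Vwf* were found in 131 of the 533 *Aplnr*/*Kit*-type cells and in 14 of the 149 aerocytes, 8 of them in mouse 3.

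When those cells were left out of both groups, a choice made after the data had been seen, 855 genes were called. Of the 574 genes first called higher 431 were called again, and of the 474 first called lower 268 were. *Emp2*, *Tbx2*, *Chst1*, and *Kdr* barely moved, to 3.63, 4.22, 4.39, and 2.12 on the log2 scale. *Mgp*, *Adgrg6*, *Plac8*, and *Fbln5* lost their call, at -0.25, -0.88, -0.84, and -0.27. *Ctsh* and *Cpe* changed sign, to 0.54 and 0.11, and were not called, and *Fgl2* was too low to be tested. All 8 venous markers tested had been lower in aerocytes (background 5.79%), and without these cells 1 of 6 was, *Ephb4*, the receptor that marks veins. The calls were lost without a change of sign. *Nr2f2*, *Vegfc*, and *Amigo2* were then at -0.71, -0.58, and -0.25 on the log2 scale, and *Vcam1* and *Selp*, with 2 and 0 UMIs in all aerocytes, at -5.74 and -3.64 (edgeR adjusted p = 0.0832 and 0.425), fitted values that depend on so few UMIs. Of 12 markers of general capillary cells tested (background 5.79%), 7 were lower in aerocytes and 5 were not called with all cells, and 7 of 11 were lower without these cells. *Ptprb* was at 1253, 1053, and 1499.6 against 2653, 3119.8, and 3070.3 CPM, with a log2 fold change of -1.19, and -1.19 without these cells. *Plvap* was at 456, 438, and 434 against 948, 914, and 873 CPM (-1.02 and -1.20), *Tek*, the receptor TIE2, at 420.4, 369, and 446 against 691, 627, and 678 CPM (-0.67 and -0.83), and *Cd93* at 1752, 1460.2, and 1837 against 2443, 2364, and 2540.1 CPM (-0.52 and -0.87). *Gpihbp1* and *Lpl*, which handle lipoproteins, passed the test only without these cells, *Edn1* only with them, and *Sema3c*, *Slco2a1*, and *Hilpda* in neither case. *Flt4*, *Jag1*, *Jag2*, *Col4a1*, *Col4a2*, and *Clic5* lost their call, with edgeR adjusted p between 0.0596 and 0.448.

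**Figure D3:**
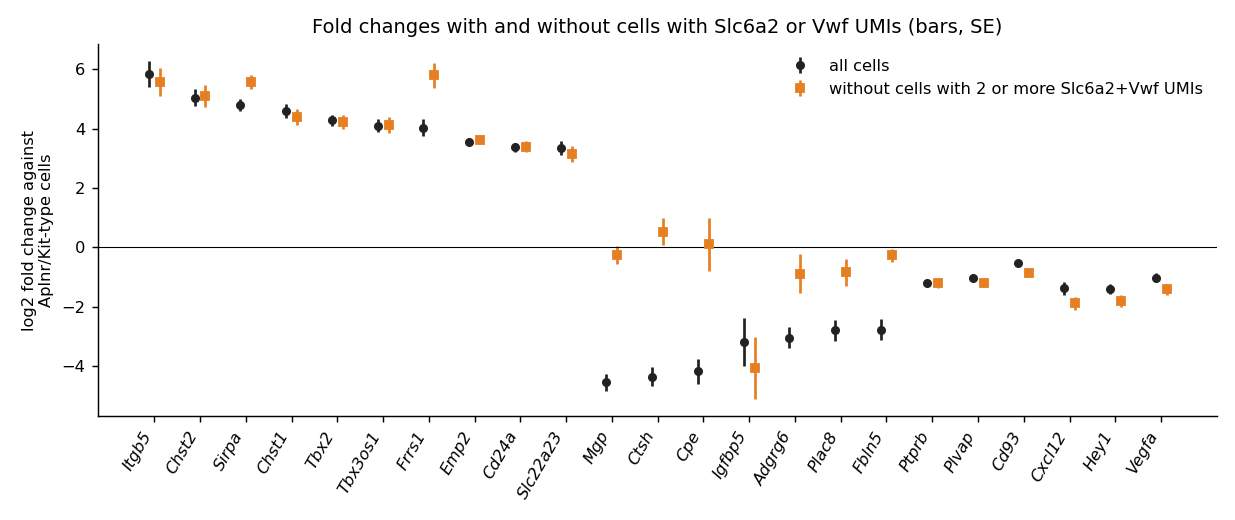
Log2 fold change of aerocytes against Aplnr/Kit-type cells (bars, SE) with all cells and without cells that held 2 or more UMIs of Slc6a2 and Vwf, for the leading genes and for 6 genes of general capillary cells, Notch, and VEGF. Genes higher in aerocytes stayed high, Mgp, Ctsh, Cpe, and Fbln5 moved to near 0, and Ptprb to Vegfa stayed below 0.

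Arterial markers were lower in aerocytes in all 10 genes tested (background 5.79%), with a median log2 fold change of -1.52, and 7 were lower also without the *Slc6a2* and *Vwf* cells. *Cxcr4*, the chemokine receptor of arterial and tip cells, was at 68.7, 28.1, and 36.0 against 141, 145, and 135 CPM (log2 fold change -1.64, SE 0.19, edgeR adjusted p = 4.87e-06). *Hey1*, a Notch target, was at 43.5, 38.7, and 69.2 against 136, 139.7, and 139 CPM (log2 fold change -1.40, SE 0.16, edgeR adjusted p = 5.96e-06). *Gja4*, a gap junction gene, and *Efnb2*, the arterial ephrin, had log2 fold changes of -0.93 and -0.70. *Eln*, which encodes elastin, was at 551, 1603, and 513 CPM in aerocytes, with mouse 3 far above the others, and at 3538, 7964, and 4989 CPM in *Aplnr*/*Kit*-type cells, where mouse 3 was also the highest. Without the *Slc6a2* and *Vwf* cells *Eln* was still called, but its difference was much smaller (log2 fold change -0.53, edgeR adjusted p = 0.00385).

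Among 22 transcription factors tested, 7 were higher in aerocytes and 5 were lower, against 7.01% and 5.79% of all genes tested. Besides *Tbx2*, *Tbx3* was at 682, 931, and 809 against 354, 369, and 407 CPM (log2 fold change 1.12, SE 0.12, edgeR adjusted p = 1.27e-06). *Foxf1*, a regulator of lung capillaries, was at 832 ± 47.7 against 589.6 ± 21.7 CPM, and *Meox1* at 64.5 ± 17.6 against 19.5 ± 4.26 CPM. *Ets2*, *Lmo2*, and *Hlx* were higher by less, with log2 fold changes of 0.38, 0.43, and 0.86. The lower ones were *Sox7* and *Sox17* of the SOX F family, *Foxp1*, *Foxo1*, a brake on EC growth, and *Nr2f2*, the venous regulator. *Foxo1* was at 104, 91.4, and 75.0 against 169, 207, and 194 CPM (log2 fold change -1.06, SE 0.13, edgeR adjusted p = 1.52e-05), and *Sox17* at 298, 248, and 296 against 439, 398, and 437 CPM (log2 fold change -0.58, SE 0.11, edgeR adjusted p = 0.00104). Without the *Slc6a2* and *Vwf* cells, *Nr2f2* and *Ets2* were not called, *Klf4* was higher, and *Epas1* and *Mecom* were lower.

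Of 13 basement membrane genes tested, *Col4a1*, *Col4a2*, *Nid1*, and *Nid2* were higher in aerocytes and *Lama5* and *Agrn* were lower (background 7.01% and 5.79%). *Nid1*, which links laminin to collagen IV, was at 432, 490.2, and 463 against 305, 298, and 314 CPM (log2 fold change 0.61, SE 0.10, edgeR adjusted p = 0.000133). *Col4a1* was at 4361, 3708, and 3579 against 3281, 2826, and 2978 CPM, a log2 fold change of only 0.38, and without the *Slc6a2* and *Vwf* cells 0.14 (edgeR adjusted p = 0.448). *Col4a2* also lost its call without these cells (0.24, edgeR adjusted p = 0.162), *Nid1* and *Nid2* did not, *Lamc1* was then higher, and *Sparc* was lower. *Agrn* was at 141, 104, and 167 against 196, 187, and 236 CPM. Of 11 integrin genes (background 7.01% and 5.79%), *Itga3*, *Itga4*, and *Itgb5* were higher, and *Itga5*, *Itga6*, *Itga9*, and *Itgb4* were lower, the last 2 only with the *Slc6a2* and *Vwf* cells included, and *Itga1* was lower only without them. *Itga3*, a laminin receptor subunit, was at 209, 262, and 203 against 74.7, 73.2, and 66.8 CPM (log2 fold change 1.67, SE 0.13, edgeR adjusted p = 5.84e-08), and *Itga6*, another, was at 390.2, 360.2, and 496 against 747, 761, and 808 CPM (log2 fold change -0.87, SE 0.12, edgeR adjusted p = 4.89e-05).

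In the BMP and TGF-beta pathways, the receptor genes *Acvrl1*, *Tgfbr2*, and *Tgfbr3* and the ligand gene *Tgfb1* were higher among 14 genes tested (background 7.01% and 5.79%). The ligand genes *Bmp4* and *Tgfb2* and the target *Id2* were lower. *Acvrl1*, the receptor ALK1, was at 1005, 1153, and 1164 against 812, 696, and 748 CPM (log2 fold change 0.58, SE 0.09, edgeR adjusted p = 0.000218). *Bmp4* was at 55.3, 127, and 57.7 against 155, 261, and 183 CPM (log2 fold change -1.30, SE 0.25, edgeR adjusted p = 0.00131). Of 19 axon guidance genes, 5 were higher (*Sema3f*, *Sema6a*, *Sema7a*, *Plxna2*, and *Ntn4*) and 3 lower (*Sema3g*, *Efnb2*, and *Ephb4*), against 7.01% and 5.79% of all genes tested. *Sema6a* was at 801, 951, and 789 against 504, 568, and 565 CPM. Of 12 tip cell genes (background 7.01% and 5.79%), 4 were higher, among them *Plaur*, the urokinase receptor (103 ± 11.7 against 20.1 ± 3.82 CPM), and *Pdgfb*, which attracts pericytes (455 ± 54.6 against 291 ± 17.6 CPM). *Cxcr4* was the 1 that was lower. *Esm1* and *Dll4*, which mark sprouting cells, did not pass, though *Esm1* was called lower without the *Slc6a2* and *Vwf* cells.

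Of genes tied to the vessel surface and clotting, *Anxa3* and *Nostrin* were higher in aerocytes, and *Vwf* and *Procr*, the protein C receptor, were lower. Without the *Slc6a2* and *Vwf* cells *Anxa3* and *Nostrin* were still called, *Procr* gave no value, and *Vwf* had itself chosen the cells left out. *Plat*, which encodes the tissue plasminogen activator, was lower only when the *Slc6a2* and *Vwf* cells were left out (-0.71, edgeR adjusted p = 0.0444). *Thbd* and *Tfpi*, anticoagulants of the capillary surface, overlapped with *Aplnr*/*Kit*-type cells and did not pass. Of 9 genes of nitric oxide and prostaglandins (background 7.01% and 5.79%), none was higher and *Nos3*, *Pde3a*, *Ptgs1*, and *Ptgis* were lower, of which *Nos3* and *Pde3a* were called also without the *Slc6a2* and *Vwf* cells. *Ace*, the angiotensin-converting enzyme, was lower only without them (-0.37, edgeR adjusted p = 0.034). *Nos3*, the endothelial nitric oxide synthase, was at 53.6, 45.7, and 47.6 against 101, 140.5, and 122 CPM (log2 fold change -1.27, SE 0.17, edgeR adjusted p = 2.92e-05), and *Edn1*, which encodes a ligand of the receptor EDNRB, at 80.4, 96.6, and 147 against 167, 265, and 219.8 CPM (log2 fold change -0.95, SE 0.22, edgeR adjusted p = 0.0056). Without the *Slc6a2* and *Vwf* cells *Edn1* was not called (edgeR adjusted p = 0.376). *Tbxa2r*, the thromboxane receptor, was higher, at 119, 119, and 118 against 22.1, 9.98, and 17.8 CPM (log2 fold change 2.77, SE 0.22, edgeR adjusted p = 5.84e-08).

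Among 11 genes of ions, water, and gas exchange (background 7.01% and 5.79%), *Slc9a3r2*, *Scn7a*, and *Piezo2* were higher in aerocytes, and *Car2*, *Car8*, *Car14*, and *Trpv4* were lower. *Scn7a* had more UMIs in aerocytes than any nuclear gene but *Malat1* and a gene model that covers ribosomal RNA, at 4668, 5959, and 5400.0 CPM against 3280.4, 2749.9, and 3360.2 CPM (log2 fold change 0.79, SE 0.15, edgeR adjusted p = 0.000753). *Piezo2*, a channel that senses stretch, was at 471, 664, and 477 against 276, 276, and 304 CPM (log2 fold change 0.93, SE 0.13, edgeR adjusted p = 2.98e-05). The gate chose *Car4*, and 3 other carbonic anhydrase genes ran against it. *Car8*, a family member without enzyme activity, was at 18.4, 26.4, and 13.0 against 114, 151, and 120.2 CPM (log2 fold change -2.72, SE 0.37, edgeR adjusted p = 3.76e-05), and *Car14*, another membrane-bound enzyme, at 25.1, 31.6, and 30.3 against 64.6, 80.6, and 64.5 CPM. Without the *Slc6a2* and *Vwf* cells *Car8* was not called and changed sign (1.14), and *Trpv4* gave no value. Of 9 genes of leukocyte adhesion (background 7.01% and 5.79%), *Icam2* and *Pecam1* were higher and *Vcam1*, *Selp*, and *Jam2* were lower, of which *Pecam1* (0.23), *Vcam1*, and *Selp* kept their direction but were not called without those cells, and *Icam1* was then higher (1.91, edgeR adjusted p = 7.81e-06). *Icam2* was at 998, 980.5, and 959 against 549, 452, and 461 CPM (log2 fold change 1.03, SE 0.10, edgeR adjusted p = 5.96e-07). *Selp* had no UMI in aerocytes and 54 in *Aplnr*/*Kit*-type cells, at least 6.48-fold higher there against a floor of 3 UMIs over the group.

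None of 12 MHC class I genes, 11 S phase genes, or 14 G2/M genes was called between aerocytes and *Aplnr*/*Kit*-type cells, when 7.01% of all genes tested were higher and 5.79% lower, so that few calls would be made in lists of this size at that share. *H2-Q7* was lower without the *Slc6a2* and *Vwf* cells (-0.63, edgeR adjusted p = 0.0424). *H2-D1* was at 699 ± 46.4 and 784 ± 79.1 CPM. *Calcrl*, the receptor for adrenomedullin, was at 2329.6, 2678, and 2679 and 2497, 2670.1, and 2727 CPM (edgeR adjusted p = 0.948). On simulated data with these sums, edgeR recovered 96% of genes changed by 2 on the log2 scale and 68% of those changed by 1, so smaller differences can have been missed. The changed genes were drawn only from those above a floor of expected UMIs, so recovery of genes of lower level was not measured. The simulation held no effect of the mouse.

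**Figure D4:**
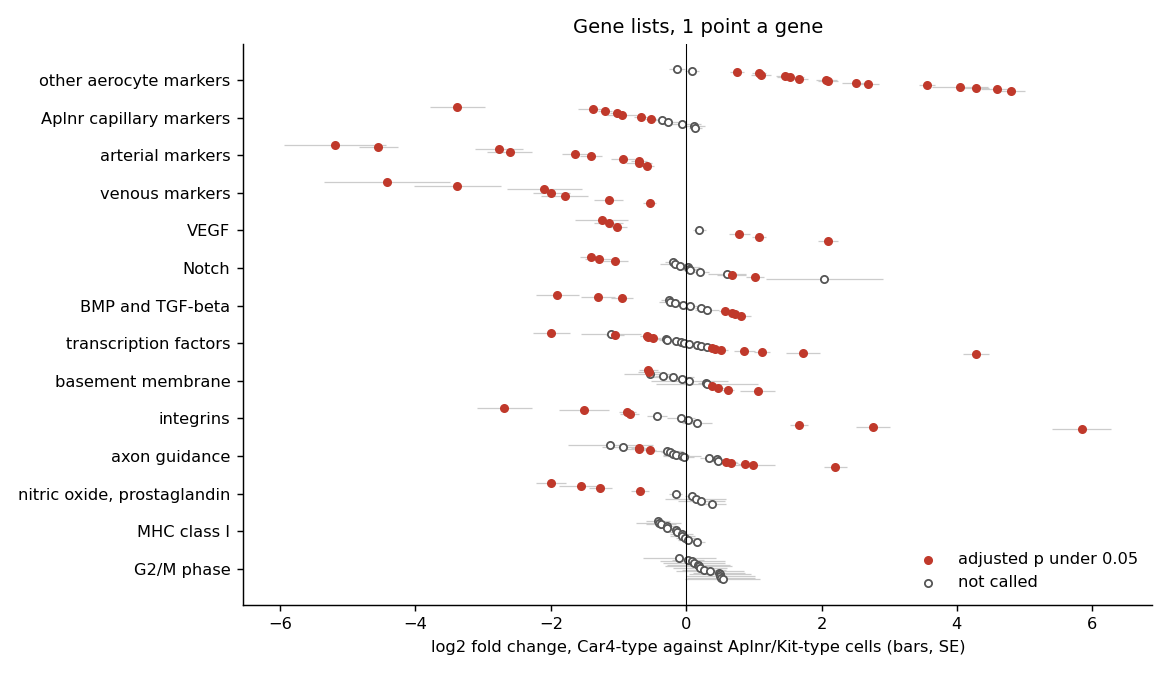
Log2 fold change of aerocytes against Aplnr/Kit-type cells for the genes of 14 lists (1 point a gene, bars, SE), filled where the edgeR adjusted p was under 0.05 and leaving out genes with no UMI in a group. With all cells included, no filled point of the other aerocyte markers lies below 0, the arterial and venous markers lie below 0, and the lists of MHC class I and G2/M genes hold no filled point.

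The study is about *Dll4*, the Notch ligand of arterial and sprouting ECs, and its level in aerocytes was therefore examined. *Dll4* (chr2:119325784-119335962, plus strand) was at 147, 123, and 151 CPM in aerocytes of mice 2, 3, and 4, 142, 129.7, and 139 CPM in *Aplnr*/*Kit*-type cells, and 485, 469.8, and 480.3 CPM in arterial-type cells. *Gm14207* overlaps *Dll4* on the opposite strand. Aerocytes and *Aplnr*/*Kit*-type cells overlapped (log2 fold change 0.06, SE 0.11, edgeR adjusted p = 0.823), and both were below arterial-type cells (for aerocytes, log2 fold change -1.80, SE 0.11, edgeR adjusted p = 3.32e-10). Without the *Slc6a2* and *Vwf* cells the capillary groups did not overlap. *Dll4* was then at 135, 144, and 156 CPM in aerocytes and 166, 179.6, and 176 CPM in *Aplnr*/*Kit*-type cells, and the difference did not pass the test (log2 fold change -0.23, edgeR adjusted p = 0.322). B cells were at 0.129 CPM. A *Dll4* UMI was found in 92 of 149 aerocytes (61.7%, exact 95% interval 53.4% to 69.6%), 266 of 533 *Aplnr*/*Kit*-type cells (49.9%), 119 of 125 arterial-type cells (95.2%), and 1 of 1787 B cells (0.0560%), at median depths of 8886, 7851, 8454, and 4039 UMIs. At 1000 UMIs a cell, with 11 aerocytes and 2 *Aplnr*/*Kit*-type cells left out as too shallow, the expected shares were 12.2% ± 0.797, 12.4% ± 0.354, and 40.4% ± 3.34 (mean ± SD, n = 3 mice). The difference in the unthinned share between the capillary groups was not seen at equal depth.

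Against *Aplnr*/*Kit*-type cells, 2 of 14 Notch genes were higher and 3 were lower (7.01% and 5.79% of all genes tested). *Jag1* and *Jag2* were not called without the *Slc6a2* and *Vwf* cells, which left 1 higher and 2 lower. *Mfng*, an enzyme that modifies Notch receptors, was at 149, 209, and 193 against 94.5, 88.9, and 92.4 CPM (log2 fold change 1.02, SE 0.13, edgeR adjusted p = 1.57e-05), and the ligand gene *Jag2* was at 54.7 ± 4.90 against 33.9 ± 6.80 CPM. The ligand genes *Dll1* and *Jag1* and the target *Hey1* were lower. *Dll1* was at 20.1, 31.6, and 18.7 against 54.4, 54.9, and 63.4 CPM (log2 fold change -1.29, SE 0.21, edgeR adjusted p = 0.000229), and *Jag1* at 33.5, 33.4, and 46.1 against 68.7, 89.8, and 84.0 CPM. The receptor genes *Notch1* and *Notch4* overlapped, at 358 ± 22.8 and 386 ± 16.6 CPM and at 163 ± 26.3 and 191 ± 7.89 CPM. Against arterial-type cells, 8 of 14 were lower in aerocytes, against 10.8% of all genes tested, with *Notch1*, *Notch4*, *Hey1*, *Hey2*, and *Nrarp* among them. *Lfng* and *Mfng*, 2 of the 14, were higher, against 11.5% of all genes tested.

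**Figure D5:**
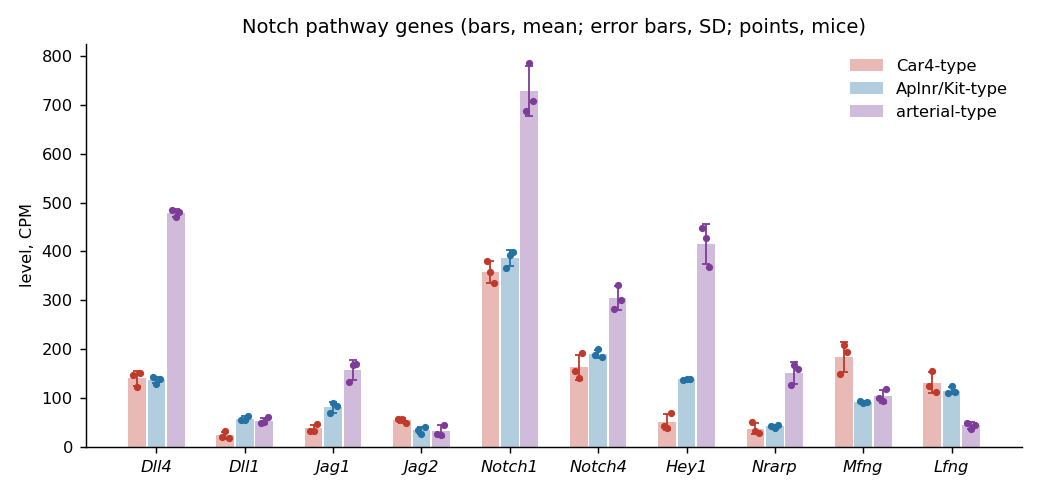
Level in CPM of 10 genes of the Notch pathway in aerocytes, Aplnr/Kit-type cells, and arterial-type cells (bars, mean of 3 mice; error bars, SD; points, mice). Dll4 was near 140 CPM in both capillary groups (141 and 137) and at 478 CPM in arterial-type cells, and Hey1 was lowest in aerocytes.

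Against arterial-type cells, 942 of 8189 genes (11.5%) were higher in aerocytes and 888 (10.8%) were lower. The 2 comparisons share the sums of the aerocytes. All 17 tested aerocyte markers were higher, *Chst1* by 6.36 and *Kdr* by 2.88 on the log2 scale. Of the 10 genes with the largest difference, *Pmp22*, *Rgcc*, a cell cycle regulator, and *Edil3*, an integrin ligand, were not among those against *Aplnr*/*Kit*-type cells. *Rgcc* was at 305, 223, and 159 CPM in aerocytes, 249.9, 294, and 214 CPM in *Aplnr*/*Kit*-type cells, and 9.97, 6.52, and 36.5 CPM in arterial-type cells. The capillary groups overlapped in it, but without the *Slc6a2* and *Vwf* cells it was lower in aerocytes than in *Aplnr*/*Kit*-type cells (-0.74, edgeR adjusted p = 0.00808). *Col4a1* was at 928 ± 103 CPM and *Scn7a* at 589.6 ± 186 CPM in arterial-type cells (2.02 and 3.13). Lower in aerocytes were *Mgp* (-7.70, from 4484, 5626, and 6347 CPM in arterial-type cells) and *Cxcl12*, the ligand of CXCR4 (-4.12, from 2389, 2673, and 3119 CPM). *Cytl1*, *Gkn3*, and *Dkk2*, an inhibitor of Wnt signaling, had no UMI in aerocytes and 876, 210, and 163 in arterial-type cells. They were thus at least 360-fold, 86.3-fold, and 67.0-fold higher there, against 3 UMIs over the group. *Bmx*, *Slc45a4*, *Lox*, *Myof*, *Sfrp1*, and *Vcam1* had 1 to 3 UMIs in aerocytes. The ratio of arterial-type cells to aerocytes was 437 for *Slc45a4* (95% interval from counting, 121 to 3615) and 149 for *Sfrp1* (50.6 to 727). *Top2a*, *Cenpf*, *Tpx2*, and *Hmgb2* of 14 G2/M genes were higher in aerocytes than in arterial-type cells.

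Against all 803 other ECs together, 714 of 10028 genes (7.12%) were higher in aerocytes and 816 (8.14%) were lower. There were thus 1530 calls with all mice, 906 without mouse 3, and 820 without mouse 4. The 15 leading genes that were higher were *Chst1*, *Sirpa*, *Tbx3os1*, *Slc22a23*, *Emp2*, *Itgb5*, *Rtn1*, *Tbx2*, *Chst2*, *Prdm1*, *Cd24a*, *Enho*, *Tbxa2r*, *Ptpn4*, and *Gnao1*, with log2 fold changes from 3.93 to 2.37. *Rtn1*, a protein of the endoplasmic reticulum, was at 166, 176, and 164 CPM in aerocytes and 23.2 ± 0.756 CPM in the others, and *Prdm1*, the repressor BLIMP-1, was at 164, 192, and 139.9 and 31.6, 33.2, and 19.3 CPM. Of the 15 leading genes that were lower, *Mfap4*, *Col3a1*, *Npnt*, and *Gsn* are matrix or stromal genes. The other ECs had no limit on RNA of other cell types, and fibroblast markers summed to 405, 1990.2, and 681 CPM in them and 21.8, 26.4, and 24.5 CPM in aerocytes. *Mfap4* was at 8.21 ± 5.42 CPM in aerocytes and 572 ± 684 CPM in the others. It was not called when the other ECs passed the same limits (log2 fold change -0.48, edgeR adjusted p = 0.628, 1380 genes called in all), whereas *Col3a1* and *Npnt* were still called lower and *Gsn* gave no value. *Cytl1*, *Sulf1*, *Thsd7a*, *Fn1*, and *Fbn1*, also among the leading genes, were higher in arterial-type than in *Aplnr*/*Kit*-type cells in level. *Sulf1*, which trims heparan sulfate, was at 489 ± 73.0 CPM there and 5.75 ± 5.18 CPM in aerocytes. *Dll4* was lower in aerocytes than in all other ECs (log2 fold change -0.42, SE 0.12, edgeR adjusted p = 0.0277), but lost the call under some alternatives. The log2 fold change was -0.43 without mouse 2 (edgeR adjusted p = 0.110), -0.28 without mouse 3 (0.231), -0.48 at 1000 UMIs a cell (0.407), and -0.51 with a filter at 500 genes and 10% mitochondrial UMIs (0.0620).

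Markers of other cell types were summed to show what else the aerocytes carried. The AT1 list was at 894, 1024, and 907 CPM in aerocytes and at 466, 429, and 495 CPM in *Aplnr*/*Kit*-type cells, and 9 of its 10 genes were detected. Its most abundant gene was *Clic5*, a chloride channel gene, at 499, 609.7, and 564 CPM. *Hopx*, a homeodomain protein of AT1 cells, was at 241, 218, and 164 against 37.8, 29.9, and 35.6 CPM (log2 fold change 2.58, SE 0.16, edgeR adjusted p = 1.79e-09), and *Lmo7* at 124, 169, and 125 against 26.3, 22.4, and 20.6 CPM (log2 fold change 2.59, SE 0.18, edgeR adjusted p = 1.08e-08). The 3 genes of the list that could be tested, *Clic5*, *Hopx*, and *Lmo7*, were all higher in aerocytes (background 7.01%). *Clic5* was not called without the *Slc6a2* and *Vwf* cells (edgeR adjusted p = 0.0652). *Aqp5* and *Ager* were not above background. *Aqp5* had no UMI in aerocytes, and *Ager* was at 15.1, 12.3, and 26.0 CPM in aerocytes, 11.6 ± 0.433 in *Aplnr*/*Kit*-type cells, and 87.7 ± 50.3 in B cells. *Ager* UMIs were found in 12.8% of aerocytes and 6.72% of B cells, and at 1000 UMIs a cell in 0.996% and 2.35%.

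The AT2 list without *Sftpc*, which the gate used, was at 213, 158, and 564 CPM in aerocytes and 5175, 1929, and 3966 CPM in B cells, which should lack it. Its most abundant gene in aerocytes was *Abca3*. Of 4 genes tested, *Sftpb* and *Abca3* were called higher than in *Aplnr*/*Kit*-type cells and 2 were not called (background 7.01%). In mouse 4, 837 of the 1045 *Sftpc* UMIs of the aerocytes lay in 1 cell, and the part of that cell in these calls was not tested. Pericyte and muscle genes were at 30.1, 31.6, and 24.5 CPM, and immune genes at 48.6, 40.4, and 93.7 CPM. *Dcn*, *Lum*, *Tcf21*, *Cd3e*, and *Nkg7* had no UMI. Their part in the results was not tested. Of 119 cells marked as doublets by simulated scores, none was an aerocyte and 31 were other ECs.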

How the data were processed

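Whole lung of 3 mice was profiled with 10x 3′ scRNA-Seq (version 3 chemistry), 1 library a mouse. The deposited counts are UMIs per gene and cell, made by the authors with Cell Ranger 3.0.2 on mm10 per the labels and the study's methods. Whether counting used strand is not given in the sources used here. The libraries held 3034, 3135, and 3475 cells with 23744510, 22476491, and 25192427 UMIs, 9644 cells in all, when the series text gives 5677. A filter of 200 genes and 20% mitochondrial UMIs left 7642.

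UMIs were summed per mouse and group and tested with edgeR 4.0.16 (R 4.3.3; TMM, filterByExpr, quasi-likelihood test, Benjamini-Hochberg adjustment at 0.05). SE was taken as the size of the log2 fold change over the square root of F. The 11 genes of the gate, and 13 where Aplnr and Kit chose the comparison cells, were not tested. The mice pair the groups, since all come from the same animals (correlations of deviations 0.0877 to 0.419 over 4134 genes). Intervals are exact binomial and cover counting error only. Doublets were scored with scanpy 1.11.5, and in mice 2 and 3, where the automatic threshold marked few cells, the highest scores at 0.8% per 1000 cells were marked. Named genes were those of largest difference (15 a direction against all other ECs, otherwise 10) among called genes with at least 100 CPM and 1 direction in all mice, plus fixed gene lists, from which an item that is withheld is not reported here. Members and lists were chosen with earlier results of these data known. The alternatives were another filter, normalization, tool (DESeq2 1.42.0), gate, depth, doublet removal, and each mouse left out.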

Additional observations from a re-analysis of the deposited data

How the results depend on the processing

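Of 65 alternative values for the counts of called genes, the share of aerocytes, and the level of Dll4, 57 stayed within their limits and 8 moved. The limit was 1.5 times for counts and the SD over mice for the share and the Dll4 level. Leaving out a mouse cannot shift a mean of 3 mice by its SD, so those values could not move. No aerocyte was marked as a doublet, so doublet removal could not change the Dll4 level. With every cell thinned to 1000 UMIs, 420, 259, and 364 genes were called against all other ECs, Aplnr/Kit-type cells, and arterial-type cells, when 1530, 1048, and 1830 were called at full depth and fewer genes could be tested after thinning (2625, 1063, and 1063). With each mouse left out, calls ranged from 820 to 1250 against all other ECs and from 594 to 921 against Aplnr/Kit-type cells. The share of aerocytes was 22.2% with other ECs that held Car4 UMIs, or 2 of Ednrb, Apln, and Fibin, left out. With the mouse as a replicate block, 1641, 1140, and 1953 genes were called, and the pairing moved no count by over 1.5 times. Values for single genes were counted only where the gene could be tested, so a gene lost to the filter, such as Fgl2, left no value. Most of these genes had been picked as called with 1 direction in all mice, which favored stable calls. The 1088 alternative values for single genes covered 76 results and not every gene of the lists. Of these values, 1073 kept direction and call, 13 lost the call, and 2 changed sign. The 2 were Ctsh (0.54) and Cpe (0.11), against Aplnr/Kit-type cells without cells with 2 UMIs of Slc6a2 and Vwf. Outside this tally, list genes also lost calls without those cells, and Car8 (1.14) changed sign.

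The alternatives on Car4 UMIs in other ECs and on Slc6a2 and Vwf were chosen after seeing the data. The 44 to 61 aerocytes of a mouse limit what can be seen of genes of low level. The cause of the changes other than fewer genes or samples was not tested.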
